A study of Saccharomyces cerevisiae with 222 samples.

Results

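Of the 2434 peak summits listed for newly made DNA in the 6 budding yeast samples described here, 373 lay around centromeres. They were chosen by position alone. A summit was taken if it lay on a nuclear chromosome other than 12, within 40 kb of the centromere and over 50 kb from both chromosome ends. On these 15 chromosomes, 1583 summits met the condition on the ends, and the 1210 that were farther from a centromere are called arm summits. The zone within 40 kb covered 1183 kb, or 12.5% of the 9493 kb in which a summit could count.

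The samples came from 3 groups with 2 replicates each, all built on E3087, a W303 strain that can use EdU, which replaces thymidine where DNA is newly made. Control cells (E3087) carried no bypass. CDK bypass cells (YKR1445) expressed Dpb11 and the phosphorylation mimic Sld2-T84D from the galactose-inducible pGAL1-10 promoter, and CDK/DDK bypass cells (YKR1447) expressed Dbf4 from that promoter as well. Every group, the control included, was arrested in G1 with α-factor and given galactose for 3 h. The cells then left the arrest in fresh medium, where they spent 90 min with EdU at 100 µM and with hydroxyurea (HU) at 200 mM, which slows forks close to the origin. Each bypass group is represented by a single strain, and the labels do not say whether replicates were separate cultures, so that the spread between them may be technical.

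Replication starts at origins, which in budding yeast are short autonomously replicating sequences (ARS) that bind the origin recognition complex. CDK promotes firing by phosphorylating Sld2 and Sld3, which then bind Dpb11, and DDK, the kinase formed by Cdc7 and its regulator Dbf4, acts on the loaded helicase. The centromeres of this yeast are short defined sequences with the elements CDEI, the AT-rich CDEII and CDEIII, on which a kinetochore forms. Origins next to centromeres are known to fire early in S phase, and in normal cells the kinetochore helps to bring Dbf4, and with it Sld3 and Sld7, to them.

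The sequences of 4 centromeres and 6 neighbouring origins are shown because the results below turn on the origins beside them. They were read from the R64 reference genome, which is the sacCer3 sequence used for the lists, 5′ to 3′. Among the 15 centromeres, the length ranged from 111 to 119 bp, and the AT share of CDEII ranged from 86.9% to 97.6%. In the centromeres, capitals mark CDEI at the left and CDEIII at the right, and all 4 are given on the plus strand. CEN3 lies within the annotated ARS308, and CEN1, CEN9 and CEN13 lie beside ARS108, ARS920 and ARS1309.
CEN1 (chr1:151465-151582): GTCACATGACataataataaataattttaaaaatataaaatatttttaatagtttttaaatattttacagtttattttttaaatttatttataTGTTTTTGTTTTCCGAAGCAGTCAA
CEN3 (chr3:114385-114501): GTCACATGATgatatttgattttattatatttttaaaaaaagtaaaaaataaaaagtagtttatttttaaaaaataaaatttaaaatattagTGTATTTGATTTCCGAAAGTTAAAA
CEN9 (chr9:355629-355745): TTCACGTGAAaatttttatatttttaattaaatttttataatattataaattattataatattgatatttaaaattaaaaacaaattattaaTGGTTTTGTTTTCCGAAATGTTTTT
CEN13 (chr13:268031-268149): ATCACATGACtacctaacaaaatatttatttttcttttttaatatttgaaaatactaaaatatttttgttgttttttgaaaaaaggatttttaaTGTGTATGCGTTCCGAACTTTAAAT

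In the origins, capitals mark an exact match to the ARS consensus, which the origin recognition complex binds, with 30 bases on each side. Both strands were searched, and each sequence is written on the strand of its match. The first 3 are origins within 10 kb of a centromere whose rank in the lists was lower after CDK/DDK bypass, and the last 3 are origins 16.8 to 19.05 kb from a centromere that ranked near the top of all 6 lists.
ARS920 (chr9:357198-357268, plus strand): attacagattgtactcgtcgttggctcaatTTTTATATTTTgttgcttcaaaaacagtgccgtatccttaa
ARS1309 (chr13:263099-263169, plus strand): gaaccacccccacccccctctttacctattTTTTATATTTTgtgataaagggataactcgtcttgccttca
ARS307 (chr3:108930-109000, minus strand): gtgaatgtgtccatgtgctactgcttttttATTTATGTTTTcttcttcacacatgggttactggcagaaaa
ARS209 (chr2:255041-255111, minus strand): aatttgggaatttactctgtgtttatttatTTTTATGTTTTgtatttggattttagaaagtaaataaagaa
ARS1014 (chr10:417353-417423, minus strand): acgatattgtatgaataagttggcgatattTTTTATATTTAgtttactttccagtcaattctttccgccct
ARS1310 (chr13:286904-286974, minus strand): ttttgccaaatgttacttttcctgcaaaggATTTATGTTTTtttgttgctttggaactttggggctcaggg
Only origins with a match could be shown in this way, so a match in both kinds follows from the choice. An exact match was present in 47.7% of the 44 ARS within 40 kb of a centromere and in 30.2% of the 215 ARS on arms. It was present in 35.2% of all 352 nuclear ARS and in 1.42% of 39382 genome windows of 241 bp, the median ARS length. ARS108, ARS208 and ARS510, which lie within 10 kb of a centromere and ranked lower after CDK/DDK bypass, hold no exact match. Several other origins described below, among them ARS919, ARS806, ARS309 and ARS415, hold none either.

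Over the whole zone within 40 kb, summits were denser around centromeres than on arms in all 6 lists, and CDK/DDK bypass lists held the fewest. The control lists held 54 and 70 centromere summits, the CDK bypass lists 69 and 81, and the CDK/DDK bypass lists 46 and 53. Means were 62 ± 11.3 for control, 75 ± 8.49 for CDK bypass and 49.5 ± 4.95 for CDK/DDK bypass (SD, n = 2 each). The CDK/DDK bypass lists did not overlap those of the other groups, whereas the control and CDK bypass lists did. Replicate 2 had more summits than replicate 1 in every group. The mean number of centromere summits differed by −12.5 between CDK/DDK bypass and control (exact two-sided permutation p = 0.333, adjusted p = 0.5 over 3 pairs of groups) and by −25.5 between CDK/DDK bypass and CDK bypass (exact permutation p = 0.333, adjusted p = 0.5). The difference between CDK bypass and control was 13 summits (exact permutation p = 0.667). With 2 samples against 2, 0.333 is the smallest p that this test can give, so no pairwise comparison in these data could pass a threshold of 0.05. The exact test over the 3 groups gave p = 0.2, where the smallest possible is 0.0667. With each list cut to its 186 best eligible summits, the differences turned to 2 against control and 1 against CDK bypass, and CDK bypass exceeded control by 1. With a list left out, the difference from control ranged from −20.5 to −4.5 for CDK/DDK bypass and from 5 to 21 for CDK bypass.

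The lower number after CDK/DDK bypass went with fewer summits on the arms. As a share of all eligible summits, those near centromeres made up 22.3% and 22.9% in control, 23.3% and 24.6% in CDK bypass, and 24.7% and 23.7% in CDK/DDK bypass. The share was thus slightly higher in both bypass groups, by 1.37 points after CDK bypass and by 1.60 points after CDK/DDK bypass (exact permutation p = 0.333 for each), but with chromosome 12 included the value for CDK/DDK bypass turned to −4.58 points. The density of centromere summits per 100 kb was 4.57 and 5.92 in control, 5.83 and 6.85 in CDK bypass, and 3.89 and 4.48 in CDK/DDK bypass. It exceeded that on arms by 2.02 to 2.31 times in the 6 lists. Arm density was 2.26 and 2.84 in control, 2.73 and 2.98 in CDK bypass, and 1.68 and 2.06 in CDK/DDK bypass. From 30 to 40 kb the density was below that of the arms in every list, at 1.06 and 2.11, 1.41 and 2.81, and 0.704 and 1.06.

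**Figure D1:**
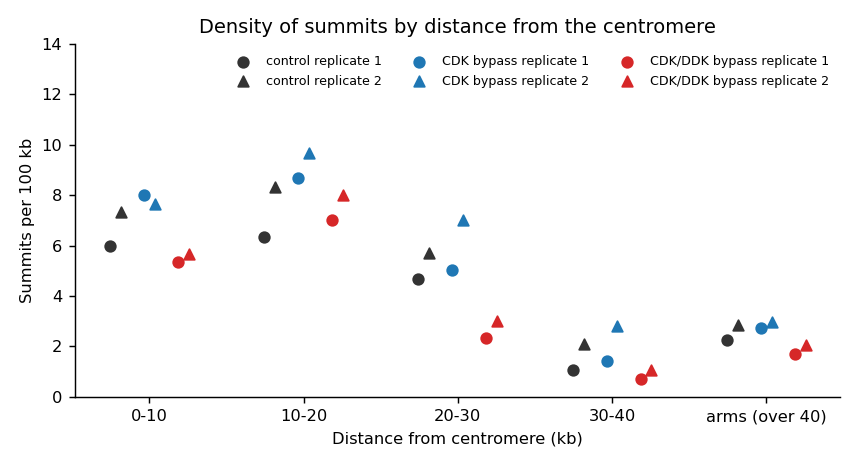
Summits per 100 kb in 4 distance classes from the centromere (kb) and on the arms, 1 point per list, circles for replicate 1 and triangles for replicate 2. Density was highest from 10 to 20 kb, between 6.33 and 9.67 summits per 100 kb, and by 30 to 40 kb it had dropped to between 0.704 and 2.81.

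By distance, the summits crowded within 20 kb of the centromere. Control lists held 18 and 22 summits within 10 kb, 19 and 25 from 10 to 20 kb, 14 and 17 from 20 to 30 kb, and 3 and 6 from 30 to 40 kb. In the same order of distance, CDK bypass lists held 24 and 23, 26 and 29, 15 and 21, and 4 and 8. CDK/DDK bypass lists held 16 and 17, 21 and 24, 7 and 9, and 2 and 3. In CDK/DDK bypass, the number from 20 to 30 kb was below that of every other list, whereas from 10 to 20 kb it lay within the range of the control lists. The median distance was 14.6 and 14.6 kb in control, 13 and 14.6 kb in CDK bypass, and 12.6 and 15.6 kb in CDK/DDK bypass, and the groups overlapped (exact permutation p = 1 for each pair).

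The summit closest to a centromere lay beside CEN2 in 5 of the 6 lists. It was 273 bp from the middle of CEN2 in control replicate 2, 585 and 683 bp away in the CDK bypass lists, and 572 and 672 bp away in those of CDK/DDK bypass, each within 1 kb of ARS208. In control replicate 1 the closest was a weak summit 348 bp from CEN3, inside ARS308.

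All 15 centromeres had at least 1 summit in every list, but their numbers differed several fold. CEN3 had 7 and 10 summits in control, 7 and 9 in CDK bypass, and 2 and 4 in CDK/DDK bypass. CEN2 had 5 and 6 in control, 10 and 10 in CDK bypass, and 3 and 3 in CDK/DDK bypass. At CEN3 the CDK/DDK bypass lists stood below the other 4, and at CEN2 the 3 groups were apart from each other. Every control and CDK bypass list had CEN3 summits at or near YCL019W, 24.7 to 30.0 kb away and over 2.5 kb from any ARS. Those scored 69.4 at most, and the CDK/DDK bypass lists had none there. CEN10 had 4 and 6, 6 and 9, and 2 and 2 summits in the same order of groups, CEN6 had 6 and 7, 4 and 6, and 3 and 3, and CEN14 had 3 and 3, 2 and 3, and 1 and 1. CEN11 went the other way, with 1 and 1 in control, 1 and 3 in CDK bypass, and 3 and 6 in CDK/DDK bypass. CEN9 had exactly 2 in every list. At CEN6, every control and CDK bypass list had summits in YFL002W-A or YFL002W-B, over 2.5 kb from any ARS. The CDK/DDK bypass lists had none there. The part of such summits in the lower counts at CEN3 and CEN6 was not tested.

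CEN15 had 4 and 4 summits in control and 5 in each of the other lists, and CEN16 had 2 and 2, 3 and 3, and 3 and 4. CEN1 had 5 and 10, 7 and 8, and 4 and 7, and CEN4 had 6 and 7, 8 and 8, and 5 and 7. These counts overlapped between control and CDK/DDK bypass at CEN1 and CEN4 but not at CEN15 and CEN16. CEN8 had 3 and 4, 5 and 6, and 3 and 3, and CEN13 had 2 and 3, 4 and 4, and 2 and 2. CEN5 had 2 and 2, 3 and 2, and 5 and 2, and CEN7 had 2 and 3, 2 and 3, and 3 and 2, both with overlapping groups throughout.

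**Figure D2:**
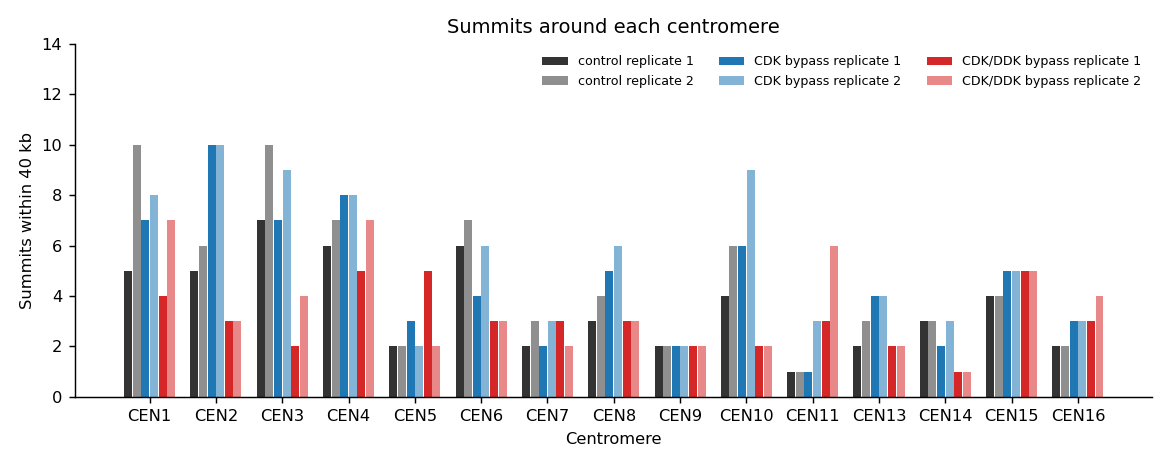
Number of summits within 40 kb of each of the 15 centromeres, 1 bar per list, full colour for replicate 1 and light for replicate 2. CEN3 had 7 and 10 in control and 2 and 4 in CDK/DDK bypass, and CEN11 had 1 and 1 in control and 3 and 6 in CDK/DDK bypass. The control counts at CEN3 include summits at or near YCL019W, over 2.5 kb from any ARS.

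Counts in CDK/DDK bypass lay below both control lists at 5 of 15 centromeres (CEN2, CEN3, CEN6, CEN10 and CEN14), where 27.8% of 90 windows of 80 kb on the arms did so. They lay above at 3 (CEN11, CEN15 and CEN16), with 15.6% on the arms. Against CDK bypass they lay below at 8 centromeres, with 31.1% on the arms, and above at 0, with 6.67%. CDK bypass lay above both control lists at 6 centromeres (CEN2, CEN4, CEN8, CEN13, CEN15 and CEN16), where 10% of arm windows did so, and below at 0, with 5.56%. Set against the arm windows, the centromeres below control after CDK/DDK bypass were about as frequent. Those above control after CDK bypass, and those below CDK bypass after CDK/DDK bypass, were more frequent. Summits were 2.02 to 2.31 times denser around centromeres, so counts in arm windows are lower and can tie more often. The shares are therefore not strictly comparable. With lists of equal length, only 1 centromere was apart between CDK bypass and control.

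Centromere summits at annotated origins had far higher scores than the others, and the share at origins was highest after CDK/DDK bypass. A summit was counted as near an origin if an ARS lay within 2.5 kb. This held for 66.7% and 52.9% of centromere summits in control, 50.7% and 46.9% in CDK bypass, and 87.0% and 81.1% in CDK/DDK bypass. The 3 groups did not overlap. CDK/DDK bypass exceeded control by 24.3 points and CDK bypass by 35.2 points, and the difference between CDK bypass and control was −10.9 points (exact permutation p = 0.333 for each pair, adjusted p = 0.333). With lists cut to equal length, CDK/DDK bypass exceeded control by 6.26 points and CDK bypass by 9.23 points, and the difference between CDK bypass and control was −2.98 points, with overlapping lists. With a list left out, that last difference ranged from −17.8 to −4.04 points. The arms showed the same order, with 63.8% and 54.7% in control, 57.3% and 53.6% in CDK bypass, and 82.9% and 78.9% in CDK/DDK bypass.

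Summits near origins were slightly more numerous after CDK/DDK bypass, although they lay at fewer origins, and weak summits away from origins were fewer. Centromere summits with an ARS within 2.5 kb numbered 36 and 37 in control, 35 and 38 in CDK bypass, and 40 and 43 in CDK/DDK bypass. Several summits can lie at 1 origin. The centromere ARS with a summit within 2.5 kb numbered 37 and 36 in control, 37 and 36 in CDK bypass, and 34 and 35 in CDK/DDK bypass. Centromere summits over 2.5 kb from any ARS numbered 18 and 33 in control, 34 and 43 in CDK bypass, and 6 and 10 in CDK/DDK bypass. Every control and CDK bypass list had such summits at or near YCL019W, YFL002W-A, YHL009W-B, YAR010C and YBR012W-A. The CDK/DDK bypass lists had no such summit at these genes. The part of these sites in the lower number was not tested. The score of a summit is −log10 of its q-value against total DNA of the same sample, and was compared only within a list. Summits away from origins had median scores between 5.33 and 11.4 in the 6 lists, against 1073 and 1599 for summits near origins in control, 598 and 614 in CDK bypass, and 38.6 and 50.1 in CDK/DDK bypass. Summits near origins thus had the higher scores within every list, and levels cannot be compared between lists, whose depths are unknown.

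Origins near centromeres were called more often than those on arms in every group. Of the 44 ARS within 40 kb of a centromere, an ARS being called if a summit lay within 2.5 kb, 37 and 36 were called in control, 37 and 36 in CDK bypass, and 34 and 35 in CDK/DDK bypass. Of the 215 on arms, 110 and 107, 116 and 111, and 100 and 107 were called. In all 6 lists, 32 centromere ARS (72.7%) and 86 arm ARS (40%) were called. The centromere ARS called in no list were ARS604, ARS2, ARS921, ARS1115 and ARS1425. The mean number of centromere origins called differed by −2 between CDK/DDK bypass and control (exact permutation p = 0.333, adjusted p = 0.5), and CDK bypass and control had the same mean of 36.5.

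Few centromere origins were lost or gained outright. ARS308, ARS1016 and ARS1426 were called in both control lists and in neither CDK/DDK bypass list, 3 of 44 where 4.25% of all 259 eligible ARS were. ARS1426, 6.97 kb from CEN14 (chr14:635664-635904, 159 bp from the gene SWM2), had scores of 159 and 235 in control and 85.2 and 108 in CDK bypass. ARS1016, 18.7 kb from CEN10 (chr10:454584-455555, 388 bp from TDH2, which codes for the glycolytic enzyme glyceraldehyde-3-phosphate dehydrogenase), had 63.3 and 46.0 in control and 74.1 and 42.8 in CDK bypass. ARS1426 and ARS1016 were also the centromere origins absent from CDK/DDK bypass and present in both CDK bypass lists, 2 of 44 with 5.41% of all eligible ARS, while 0 were gained, with 2.32%.

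ARS308, the origin around CEN3 (chr3:114321-114939), had scores of only 7.11 and 13.8 in control and was called in no bypass list. It was the sole centromere origin absent from both CDK bypass lists and present in control, with a share of 1.16% among all eligible ARS, while 0 were gained, with 2.7%. ARS1113, 22.9 kb from CEN11 (chr11:417185-417417, 207 bp from ARC19, which codes for a subunit of the actin-nucleating complex), was called in both CDK/DDK bypass lists with scores of 9.64 and 11.4 and in neither control list, 1 of 44 where 2.7% of all eligible ARS were. CDK bypass replicate 2 also called it, with a score of 4.16. The numbers lost and gained were thus near those over all origins in each comparison.

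Widening each summit by 5 kb on both sides and merging the lists gave 173 regions, of which 35 held a centromere summit. Of these, 28 (80%) were called in all 6 lists, against 90 of the 138 others (65.2%). Between control and CDK/DDK bypass, 3 of 35 were absent after bypass, where 12.7% of all regions were, and 1 was gained, where 2.89% were. Those absent were the region of ARS1426 (chr14:627386-643540) and 2 regions without an ARS, chr8:84486-96078 and chr10:468175-484685, and the region gained held ARS1113 (chr11:410965-423304). In the 2 regions without an ARS, the centromere summits lay in YHL009W-B on chromosome 8 and in YJR026W or YJR027W on chromosome 10. The same 3 regions were absent against CDK bypass, where 14.5% of all regions were, and 0 were gained, where 2.31% were. Between CDK bypass and control, 0 of 35 were lost and 0 were gained, with 0% and 2.89% of all regions.

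The order of origins by score within a list differed between groups, and the difference varied with distance from the centromere. For each of the 118 ARS called in all 6 lists, the highest summit score within 2.5 kb was ranked in each list and given as a percentile, so that the general level of a list drops out. This measure was chosen after the data were seen. Neighbouring ARS were counted separately even where they had the same ranks in every list, as ARS722 and ARS723, ARS914 and ARS915, and ARS1012 and ARS1013 did on the arms. In a separate experiment, the paper describes an excess of sequences around the centromere in total DNA after G1 replication by CDK/DDK bypass. Scores are taken against total DNA, so their background may differ by position within a list. The part of this background in the ranks was not tested. The median rank of the 32 centromere origins was 66.9 and 69.9 in control and 66.9 and 66.9 in CDK bypass, but 52.1 and 46.6 in CDK/DDK bypass. The 86 arm origins had medians of 40.3 and 41.5, 40.7 and 40.3, and 49.6 and 50.8. Centromere origins thus stood above arm origins by 26.7 and 28.4 points in control, 26.3 and 26.7 in CDK bypass, and 2.54 and −4.24 in CDK/DDK bypass. From control to CDK/DDK bypass this value differed by −28.4 points, and from CDK bypass to CDK/DDK bypass by −27.3 points (exact permutation p = 0.333 for both, the smallest possible, adjusted p = 0.5). CDK bypass differed from control by −1.06 points (exact permutation p = 0.667), with overlapping lists.

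**Figure D3:**
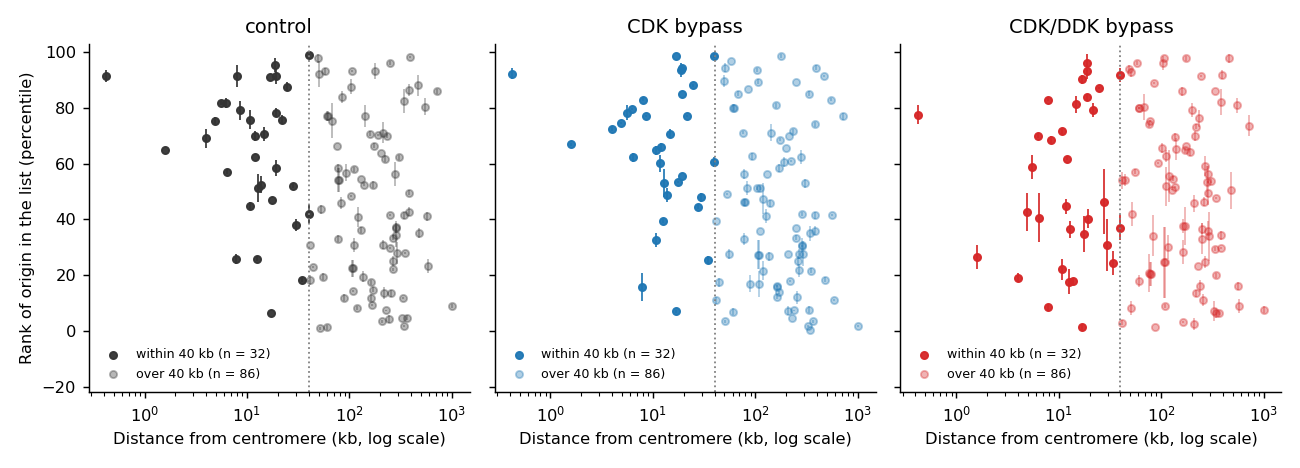
Rank of each of the 118 origins called in all 6 lists (percentile of its highest score within 2.5 kb) against distance from the centromere (kb, log scale), 1 panel per group. Points are means and lines span the 2 lists, with a dotted line at 40 kb. In control and CDK bypass most of the 32 origins within 40 kb lie in the upper part, whereas in CDK/DDK bypass they spread over the whole range.

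Raw scores show the same within each list. The median score of centromere origins was 1442 and 2047 in control, 631 and 867 in CDK bypass, and 57.0 and 70.4 in CDK/DDK bypass. That of arm origins was 606 and 837, 239 and 299, and 51.1 and 75.3. Over all summits rather than origins, the log2 ratio of the median centromere score to the median arm score was 3.03 and 0.95 in control, 1.78 and 0.97 in CDK bypass, and 0.31 and 1.01 in CDK/DDK bypass, with overlapping groups (exact permutation p = 0.667 for CDK/DDK bypass against control). With only the highest summit kept per 5 kb, which removes many weak neighbours, the centromere median was 5.31 and 5.44 times the arm median in control, 4.33 and 3.52 times in CDK bypass, and 0.868 and 1.02 times in CDK/DDK bypass, and the 3 groups were apart.

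Origin by origin, 20 of the 32 centromere origins had ranks in both CDK/DDK bypass lists below those in both control lists, where 35.6% of all 118 origins did, and 22 of the 86 on arms. Only 3 of 32 had higher ranks in both, where 37.3% of all did, and 41 of 86 on arms. Each of the 15 centromeres, with 1 to 3 ranked origins, had at least 1 that ranked lower, and no like count was made for arm origins. CEN4 had 1 origin that ranked lower and 2 that ranked higher, and CEN6 had 1 of each. Against CDK bypass, 22 of 32 were lower in CDK/DDK bypass, with 34.7% over all origins, and 2 were higher, with 38.1%. Between CDK bypass and control, 6 of 32 were lower, with 29.7%, and 9 were higher, with 33.9%. Ranks are relative, so that lower ranks of some origins raise those of others.

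The difference in rank was largest next to the centromere. Between control and CDK/DDK bypass, all 10 origins within 10 kb ranked lower, with a median difference of −16.9 points. From 10 to 20 kb, 9 of 15 did, with a median difference of −8.05 points, and from 20 to 40 kb, 1 of 7 did, with −4.87 points. On the arms, 5 of 18 ranked lower from 40 to 80 kb (median difference 2.97 points), 4 of 20 from 80 to 160 kb (4.87 points) and 13 of 48 beyond 160 kb (2.01 points). The 5 from 40 to 80 kb include ARS722 and ARS723, which had the same ranks in every list. Between CDK bypass and control, 2 of the 10 origins within 10 kb ranked lower and 2 higher, with a median difference of −1.48 points. Centromere origins started from higher ranks than arm origins, and the part of the starting rank in the difference was not tested. The counts below are split by the same control ranks that enter the difference, so they are no test of that part. Among origins ranked in the upper 50% of both control lists, 13 of 22 near centromeres and 8 of 34 on arms ranked lower in CDK/DDK bypass. Among those in the lower 50% of both, 5 of 8 near centromeres and 11 of 49 on arms did.

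**Figure D4:**
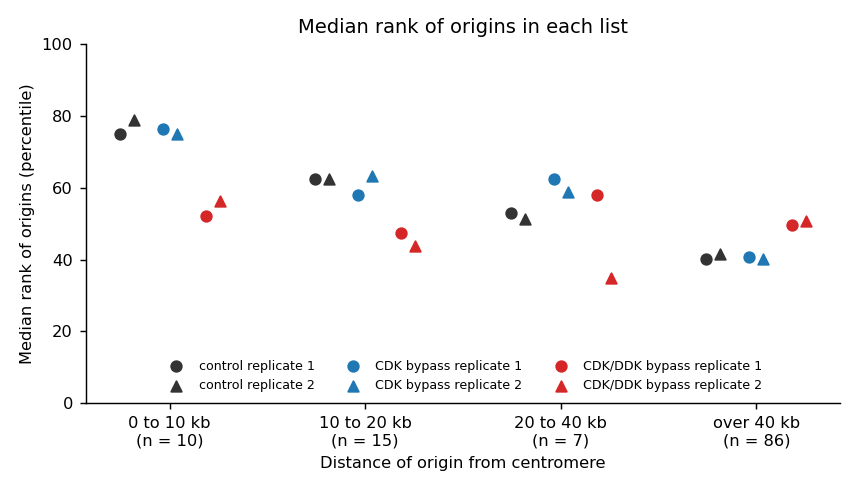
Median rank (percentile) of the origins called in all 6 lists by distance from the centromere, 1 point per list, with the number of origins under each class. Within 10 kb the control medians were 75 and 78.8, the CDK bypass medians 76.3 and 75, and the CDK/DDK bypass medians 52.1 and 56.4, whereas over 40 kb the CDK/DDK bypass lists had the highest medians.

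Among the 32 centromere origins, ARS108 had the largest difference in rank between control and CDK/DDK bypass. It lies 3.97 kb from CEN1 between genes (chr1:147398-147717, 26 bp from VPS8, which codes for a vacuolar transport protein). Its rank was 65.7 and 72.5 in control, 71.6 and 73.3 in CDK bypass, and 20.8 and 17.4 in CDK/DDK bypass, with scores of 1398 and 2096, 860 and 1109, and 22.1 and 34.4. Both CDK/DDK bypass lists lay far below the other 4, and the mean rank differed from control by −50 points. ARS101, on the other side of CEN1, was at 75.8 and 82.6 in control and at 67.4 and 69.9 in CDK/DDK bypass.

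Both called origins beside CEN9 behaved alike. ARS920, 1.59 kb from CEN9 (chr9:357160-357396, 137 bp from the DNA helicase gene MPH1), had ranks of 64.8 and 64.8 in control, 66.5 and 67.4 in CDK bypass, and 22.0 and 30.9 in CDK/DDK bypass. ARS919, 13.7 kb away on the other side (chr9:341976-342045, 526 bp from URM1, which codes for a ubiquitin-like protein), had 49.6 and 55.5, 46.2 and 51.3, and 16.5 and 19.1. The mean differed from control by −38.3 points for ARS920 and by −34.7 points for ARS919, while the number of summits around CEN9 was 2 in every list.

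At CEN13, 2 neighbouring origins differed. ARS1309, 4.91 kb from the centromere (chr13:263063-263296, 304 bp from YML003W), had ranks of 74.2 and 76.7 in control, 75 and 74.2 in CDK bypass, and 36.0 and 49.6 in CDK/DDK bypass. ARS1310, 18.8 kb away on the other side (chr13:286835-286951, 576 bp from ANY1), had 92.8 and 97.9, 91.1 and 96.2, and 92.8 and 99.6. The mean of the nearer origin differed from control by −32.6 points, the farther was near the top of every list, and both hold an exact consensus match.

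On chromosome 3, ARS307 and ARS306 lie on the same side of CEN3. ARS307, at 5.55 kb (chr3:108727-109060, 102 bp from LDB16, a gene of lipid droplet biology), had ranks of 82.6 and 80.9 in control, 80.9 and 75.8 in CDK bypass, and 54.7 and 63.1 in CDK/DDK bypass, a difference in the mean of −22.9 points. ARS306, an efficient early origin at 39.9 kb (chr3:74458-74677), had 98.7 and 99.6, 99.6 and 97.9, and 89.4 and 94.5. Its summits lay 40.0 to 40.8 kb from CEN3, just outside the limit for centromere summits, so that only the ARS itself falls in the zone. ARS309, on the other side at 17.6 kb, had 47.0 and 47.0 in control and 28.4 and 41.1 in CDK/DDK bypass.

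ARS208, the origin nearest to a centromere among those called in all 6 lists, lies 0.421 kb from CEN2 (chr2:237787-237900, 376 bp from ECM15). It had ranks of 89.4 and 93.6 in control, 94.5 and 90.3 in CDK bypass, and 80.9 and 74.2 in CDK/DDK bypass. It thus lay in the upper part of every list, but below all others after CDK/DDK bypass. ARS806, 10.7 kb from CEN8, had 43.6 and 46.2 in control, 30.1 and 35.2 in CDK bypass, and 25.8 and 18.2 in CDK/DDK bypass, so that both bypass groups lay below control. ARS1, next to TRP1, a gene of tryptophan synthesis, and 12.8 kb from CEN4, had 46.2 and 56.4 in control and 39.4 and 33.5 in CDK/DDK bypass.

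**Figure D5:**
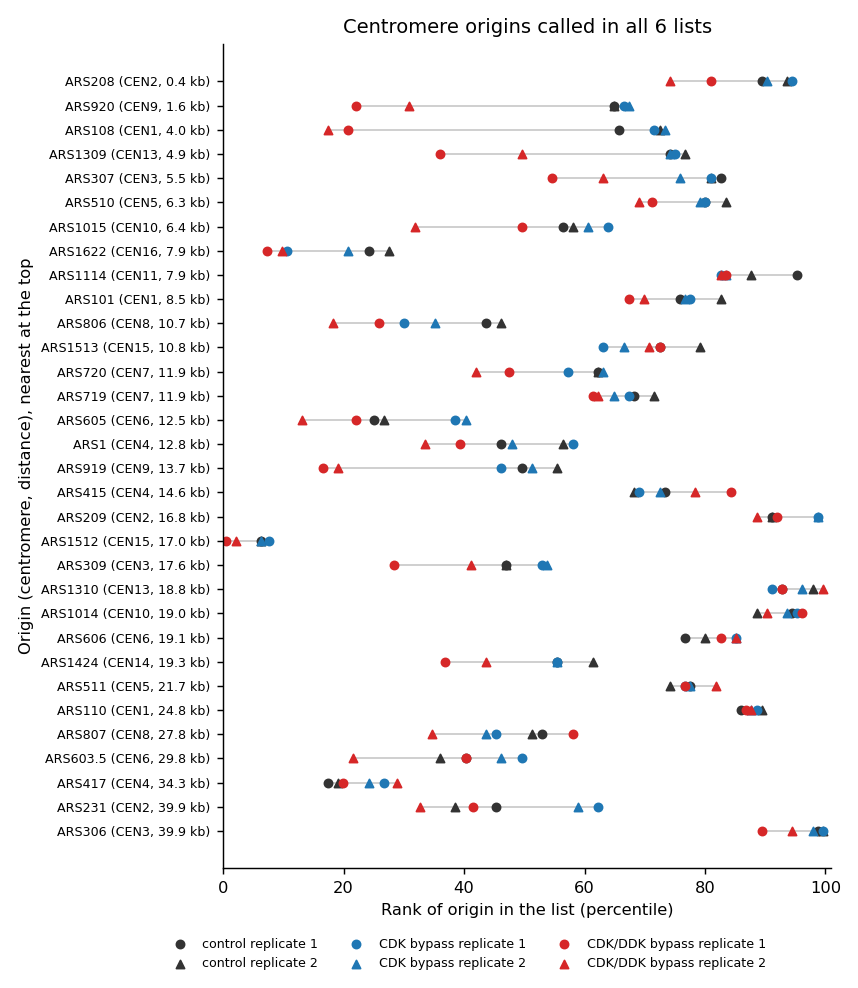
Rank (percentile) of each of the 32 centromere origins called in all 6 lists, from the nearest to the centromere at the top to the farthest at the bottom, 1 point per list, circles for replicate 1 and triangles for replicate 2. In the upper part of the plot the CDK/DDK bypass points lie to the left of the control points at all 10 origins within 10 kb, whereas at several origins farther out the points of the groups overlap.

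The origins with the highest scores over all 6 lists are described next, chosen on the very values given, bypass lists included, so that an origin with low scores in any group could hardly be among them. By the mean score percentile among the eligible summits of a list, the first 5 of those called in all 6 lists were ARS306 (98.3 ± 2.54), ARS1310 (97.9 ± 1.74), ARS1014 (97.1 ± 1.32), ARS209 (96.9 ± 2.32) and ARS110 (94.4 ± 1.65; SD over 6 lists). ARS306 ranked lower in both CDK/DDK bypass lists than in the other 4, as given above. ARS209, 16.8 kb from CEN2 and 333 bp from the histone gene HHF1, had ranks of 91.1 and 91.1 in control, 98.7 and 98.7 in CDK bypass, and 91.9 and 88.6 in CDK/DDK bypass. ARS1014, 19.05 kb from CEN10, had 94.5 and 88.6 in control and 96.2 and 90.3 in CDK/DDK bypass. For both, the control and CDK/DDK bypass lists overlapped, and ARS209 ranked higher in CDK bypass than in either. By control ranks alone, ARS1114, 7.95 kb from CEN11, with 95.3 and 87.7, and ARS208 were as high as ARS209, and in CDK/DDK bypass ARS1114 had 83.5 and 82.6. ARS110, 24.8 kb from CEN1, lay between 86.0 and 89.4 in all 6 lists. The origins that ranked higher in both CDK/DDK bypass lists than in both control lists were ARS415, ARS606 and ARS417, at 14.6, 19.1 and 34.3 kb from their centromeres. ARS415, at CEN4, had 73.3 and 68.2 in control and 84.3 and 78.4 in CDK/DDK bypass.

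At the very top of the lists the groups were alike. Of the 24 origins at the top of the ranks, 1 in 5 of the 118,, 9 and 11 lay near centromeres in control, 10 and 8 in CDK bypass, and 9 and 8 in CDK/DDK bypass, where 27.1% of all 118 origins lay there. The 4 centromere origins with the largest differences, ARS108, ARS920, ARS1309 and ARS919, ranked between 49.6 and 76.7 in control, below that top class.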

How the data were processed

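EdU-labeled DNA and total DNA were sequenced, and the authors aligned reads to sacCer3 (BWA 0.7.17, SAMtools 1.12, deepTools 3.5.1, per the labels) and called peaks for each sample on its own with MACS2 2.2.7.1 against its total DNA, with a stated q-value limit of 0.1. The deposited lists give each summit and its −log10 q-value. No read counts are given, so the depth of each sample is unknown, no counting interval can be given, and scores were compared only within a list. The lowest score was 1.31, and no entry was shared between lists. The cells derive from W303, and positions are those of the reference.

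Distances were taken from the centromere's middle, with the ARS and genes of the R64 annotation (R64-5-1), and coordinates count from 1. Chromosome 12, which carries the rDNA, was left out. Group means were compared by exact two-sided permutation tests over the 6 assignments of 4 samples, with Benjamini-Hochberg adjustment over the 3 pairs, or over the 15 partitions of 6 samples. Counts of origins, centromeres and regions were read against the same counts over all eligible ARS, 80 kb arm windows and merged regions.

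The members and lists were chosen with earlier results of these data known. Named were all 15 centromeres, the 5 ARS nearest to a centromere, the 5 strongest called in all lists, and ARS or regions called in both lists of a group and neither of another. Origins named for their change in rank were chosen after their values were seen. Alternatives were scores from 2 upwards, lists cut to the 186 best summits, 1 summit per 5 kb, a limit of 20 kb, chromosome 12 included, ARS within 1 kb or 5 kb, region windows of 1 kb or 2.5 kb, same-numbered replicates as blocks, and leaving out each sample. Scripts (Python 3.11.15, numpy 2.4.6, scipy 1.17.1, matplotlib 3.10.9) were tested on simulated lists. The other 216 samples were not analysed here.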

Additional observations from a re-analysis of the deposited data

Results flagged for a closer look

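For 2 measures, both CDK bypass lists lay on one side of the control mean and both CDK/DDK bypass lists on the other. The number of centromere summits was 69 and 81 in CDK bypass and 46 and 53 in CDK/DDK bypass around a control mean of 62, a difference of −25.5 between the bypass groups. The percent of centromere summits with an ARS within 2.5 kb was 50.7% and 46.9% in CDK bypass and 87.0% and 81.1% in CDK/DDK bypass around a control mean of 59.8%, a difference of 35.2 points, which was 9.23 points in lists cut to equal length. There the number of summits differed by 1. Both differences between the bypass groups had an exact permutation p of 0.333, the smallest possible with 2 samples against 2, and the arms showed the second pattern as well.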

How the results depend on the processing

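The main limit is 2 samples per group, with which no pairwise exact test can fall below 0.333, and the unknown depth of each list. The lower origin ranks near centromeres after CDK/DDK bypass kept their direction in every alternative tried. The change against control was between −29.9 and −27.4 points across settings and between −31.5 and −25.0 points with a sample left out. All origins within 10 kb (8 to 11 of them, by setting) ranked lower under each setting. Scores from 2 upwards and 1 summit per 5 kb gave the same rank values as the main setting. The replicate block gives the same mean differences by construction. These settings thus add no separate check of the ranks. The percent of summits near an ARS kept its directions too, although in lists cut to equal length CDK/DDK bypass exceeded control by 6.26 points only. Of 216 alternative differences whose reported value was not 0, 195 kept their direction (59 of these more than 1.5 times larger or smaller), 19 turned and 2 were 0, and of 93 alternative counts 74 stayed within 1.5 times. With lists of equal length, the difference in centromere summits turned to 2 for CDK/DDK bypass against control and 1 against CDK bypass, so that the lower number went with the shorter lists. There, the median distance turned to 0.388 kb for CDK bypass against control and −1.55 kb for CDK/DDK against CDK bypass, origins lost or gained between CDK bypass and control numbered 0, centromeres apart 1, and regions lost or gained were 7 for CDK/DDK bypass against control and 7 against CDK bypass. With 1 summit per 5 kb, the share differed by −0.0802 points between the bypass groups, and regions lost or gained were 7 against control and 6 against CDK bypass. Within 20 kb, the median distance turned to 0.558 kb for CDK bypass and 0.539 kb for CDK/DDK bypass against control and −0.0191 kb between the bypass groups, and regions against control were 2. With chromosome 12, whose rDNA summits count as arm summits, the share turned to −4.58 points for CDK/DDK bypass against control and −5.83 against CDK bypass, the log2 score ratio to 0.48 and the distance to −0.357 kb between the bypass groups. With ARS within 1 kb, 2 origins were lost or gained between CDK bypass and control. Regions lost or gained rose to 4, 7 and 9 (CDK bypass against control, CDK/DDK bypass against control and against CDK bypass) with windows of 2.5 kb and to 5, 12 and 16 with 1 kb, where neighbouring regions are no longer merged. With a sample left out, the log2 score ratio of CDK bypass against control ranged from −1.66 to 0.43 (the latter without control replicate 1), and that share between the bypass groups from −0.424 to 0.885 points. The median distance ranged from −1.60 to 0.0479 kb (CDK bypass against control), from −2.03 to 0.990 kb (CDK/DDK bypass against control) and from −1.26 to 1.76 kb (CDK/DDK against CDK bypass). Origins lost or gained ranged from 1 to 2 (CDK bypass against control) and from 2 to 4 (CDK/DDK against CDK bypass), and regions from 0 to 2 and from 3 to 5. The cause of these changes was otherwise not tested. Replicate numbers are shared by label only. Same-numbered lists deviated together in their counts over 15 centromeres (correlations of 0.390, 0.482 and 0.3996 for the 3 pairs of groups), but 2 pairs are too few to settle whether the numbers pair the samples. The 2 deviations within a group mirror each other, so each pair of groups gives a single value. Replicate 2 was the longer list in every group, and the part of list length in these correlations was not tested. Within a replicate number, CDK bypass had more centromere summits than control both times (69 against 54 and 81 against 70). With the replicate number as a block, the difference in centromere summits against control was −12.5 for CDK/DDK bypass and 13 for CDK bypass, with a smallest possible exact p of 0.5, and no test passed in either fit.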
